A study of Mus musculus with 6 samples.

Results

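The genes described here encode voltage-gated and potassium ion channels and the proteins that assemble with them, and the measurement is the binding of Dppa2 at their promoters in mouse embryonic stem cells (ESCs). This set was proposed with earlier results of these data known, so what follows is a description and no set test was run. Its members were taken by symbol from the protein-coding genes of GENCODE M1 on mm9. Names had to begin as those of potassium (Kcn), sodium (Scn), calcium (Cacn) and pacemaker (Hcn) channels, TRP channels or ClC chloride channels and exchangers. This rule found 168 gene entries with 165 distinct symbols, of 22367 protein-coding gene entries on the same chromosomes, because Kcnb2, Kcnh8 and Scn8a are annotated as 2 entries each. The label is broader than a single activity: 132 of the entries encode pore-forming proteins, 36 encode proteins that form no pore, and Trpc4ap, a TRP-associated protein, was taken in by its symbol. TRP channels and ClC proteins are included by the rule although most of them are not gated by voltage alone, and Scn2a1, whose symbol ends in a digit, is left out by it. A gene was called Dppa2-bound when the midpoint of a Dppa2 peak lay within 1000 bp of the transcription start site (TSS) of any of its transcripts.

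The peaks come from anti-V5 ChIP-seq in CGR8 cells, mouse ESCs that grow with serum and leukaemia inhibitory factor and need no feeder cells. The cells carried Dppa2 with a V5 tag at the N terminus, expressed from a pPyCAG vector in a stably selected line, and the parental CGR8 line without the tag was used for the control ChIP. Each of these ChIPs is 1 library, so that no replicate error and no test between conditions can be given, and the tagged protein was expressed in addition to the cells' own Dppa2. Of these libraries, the deposited peaks of the V5-Dppa2 ChIP were used. The other 5 of the 6 samples were not analysed here, and a list of peaks holds no marker expression with which the cell type could be checked. The list has 3336 peaks, 3281 of them (98.4%) with their midpoint within 1000 bp of an annotated TSS, so it describes promoters and says nothing of binding elsewhere in the genes.

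Ion channels set the resting potential of a cell and shape its electrical signals. Voltage-gated potassium (Kv) channels are tetramers of alpha subunits that repolarise the membrane, whereas the alpha subunits of voltage-gated sodium and calcium channels each hold a whole pore and carry the inward currents of the action potential. Most of these genes are known for their expression in neurons, muscle and endocrine cells. Dppa2 is a protein of pluripotent and germ cells with a SAP domain, a fold that binds DNA, and is known to occupy CpG-rich promoters.

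Promoter sequences of channel genes with and without a Dppa2 peak are shown first, because CpG content runs through the results that follow. Each is the 120 bases just upstream of the TSS shared by most transcripts, read from mm9 5' to 3' in the direction of transcription, and CG dinucleotides are in capitals. None of these stretches lies in an annotated exon. The first are Kcnq3, from the family with the highest bound share, and pairs from 3 families in which some members were bound and others were not. Kcnq3 (minus strand, chr15:66117787-66117906), Kcna3 (plus strand, chr3:106838960-106839079), Kcnd2 (plus strand, chr6:21165383-21165502) and Hcn2 (plus strand, chr10:79179259-79179378) were bound and their stretches lie inside the peak, whereas Kcna2 (plus strand, chr3:106904365-106904484), Kcnd3 (plus strand, chr3:105255128-105255247) and Hcn4 (plus strand, chr9:58671199-58671318) had no peak.
Kcnq3, bound: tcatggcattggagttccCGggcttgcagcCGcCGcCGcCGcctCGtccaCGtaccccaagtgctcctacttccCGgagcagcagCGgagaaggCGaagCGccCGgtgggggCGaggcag
Kcna3, bound: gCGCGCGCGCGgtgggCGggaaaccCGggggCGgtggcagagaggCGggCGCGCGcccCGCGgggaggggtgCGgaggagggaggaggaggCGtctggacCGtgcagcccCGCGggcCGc
Kcna2, not bound: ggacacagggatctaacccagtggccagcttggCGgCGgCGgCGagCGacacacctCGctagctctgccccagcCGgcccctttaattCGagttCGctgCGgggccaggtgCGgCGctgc
Kcnd2, bound: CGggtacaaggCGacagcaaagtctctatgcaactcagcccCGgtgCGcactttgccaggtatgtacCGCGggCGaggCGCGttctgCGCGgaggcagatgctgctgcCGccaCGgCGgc
Kcnd3, not bound: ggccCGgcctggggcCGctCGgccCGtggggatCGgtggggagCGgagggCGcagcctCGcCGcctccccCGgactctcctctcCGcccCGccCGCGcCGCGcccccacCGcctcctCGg
Hcn2, bound: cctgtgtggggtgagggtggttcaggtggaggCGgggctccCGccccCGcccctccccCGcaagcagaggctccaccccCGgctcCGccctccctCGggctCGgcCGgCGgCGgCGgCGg
Hcn4, not bound: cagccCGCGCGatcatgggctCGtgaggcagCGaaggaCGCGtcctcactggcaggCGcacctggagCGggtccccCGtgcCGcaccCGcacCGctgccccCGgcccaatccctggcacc
The bound stretches of Kcnq3, Kcna3, Kcnd2 and Hcn2 hold 13, 20, 14 and 13 CG, and the unbound ones of Kcna2, Kcnd3 and Hcn4 hold 12, 18 and 14. The CG content of these 120 bases did not separate bound from unbound promoters in every case, as the next 4 stretches show. Kcnk4 (minus strand, chr19:7009006-7009125) and Cacng6 (plus strand, chr7:3425303-3425422) were bound inside peaks with 2 and 3 CG upstream of the TSS, whereas Cacna1d (minus strand, chr14:31166673-31166792) and Kcng3 (minus strand, chr17:84031236-84031355) had no peak with 26 and 20 CG.
Kcnk4, bound: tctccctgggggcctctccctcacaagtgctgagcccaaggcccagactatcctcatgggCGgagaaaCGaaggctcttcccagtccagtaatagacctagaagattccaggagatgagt
Cacng6, bound: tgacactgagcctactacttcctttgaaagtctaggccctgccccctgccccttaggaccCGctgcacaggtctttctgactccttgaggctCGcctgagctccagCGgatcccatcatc
Cacna1d, not bound: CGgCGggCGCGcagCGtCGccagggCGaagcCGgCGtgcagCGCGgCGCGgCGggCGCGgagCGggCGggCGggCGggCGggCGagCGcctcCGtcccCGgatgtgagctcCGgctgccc
Kcng3, not bound: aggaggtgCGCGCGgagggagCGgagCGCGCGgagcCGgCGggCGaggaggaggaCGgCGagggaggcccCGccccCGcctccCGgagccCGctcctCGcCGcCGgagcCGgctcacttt
Over 19 bound channel genes with an upstream stretch outside exons, inside the peak or not and taken at the TSS nearest to the midpoint, the median was 13.0 CG with a range from 0 to 20. Over 118 unbound ones, taken at the TSS shared by most transcripts, it was 4.00, with a range from 0 to 26.

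Dppa2 peaks were found at the promoters of 34 of the 168 channel genes, against a background of 14.2% of all protein-coding genes. The share of channel genes was 20.2% (95% exact Clopper-Pearson interval 14.4 to 27.1%), and that of the other protein-coding genes was 14.1% (3135 of 22199). Here and below such intervals cover counting error only, and genes that share a family are not independent of each other. The intervals also make no allowance for a set proposed with earlier results of these data known. Kcnk4, Kcnq3, Kcnf1, Kcna3, Kcnc4, Kcng2, Kcns2 and Trpm8 were among the channel genes with the strongest peaks. At a stricter score of at least 200, 18 channel genes (10.7%) remained bound, where 8.06% of all protein-coding genes were. Pore-forming genes were bound in 29 of 132 cases (22.0%) and the genes of proteins that form no pore in 5 of 36 (13.9%, interval 4.67 to 29.5%), whose intervals overlap.

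CpG content was higher at bound than at unbound channel genes. It was measured as the CpG observed-to-expected ratio, the number of CG in the 1000 bp around the TSS divided by the number that the C and G content would give, and all protein-coding genes were ranked into 10 equal groups (deciles) by it. The median ratio was 0.791 for bound channel genes (quartiles 0.640 and 0.854) and 0.428 for unbound ones. For other genes it was 0.776 when bound and 0.468 when not. The median GC content was 63.6% at bound and 56.1% at unbound channel promoters. As a whole the channel genes were not CpG-rich, with a median ratio of 0.509 against 0.545 for the other genes.

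Set beside other genes of like CpG content, the channel genes had a higher bound share. With the other genes weighted to the CpG groups of the channel genes, the bound share was 14.0%, which would be 23.6 of 168 genes, and the observed count was 10.4 genes or 6.22 percentage points higher. No test was made of this difference. It was smaller when GC content was matched as well: with groups of CpG ratio divided into 3 classes of GC content, the weighted share was 17.1%, inside the interval of the channel genes, and the difference was 3.17 points. With groups of the number of CG the weighted share was 16.3%, also inside the interval, and the difference was 3.89 points. With the same 34 genes bound, the remaining choices gave weighted shares from 13.9% to 14.8%, on both sides of the interval's lower end of 14.4%. For peaks that scored 200 or more the difference was 2.60 points. The difference was larger at CpG-rich promoters. In the top 3 groups of CpG content 20 of 46 channel genes were bound (43.5%, interval 28.9 to 58.9%), against 27.7% of the other genes in the same groups and 26.8% after weighting. In the middle 4 groups 13 of 84 were bound (15.5%), where the weighted share of other genes was 12.1%. In the lowest 3 groups Trpv4 was the single bound gene of 38 (2.63%), beside a weighted share of 2.85%. The groups were set at the TSS shared by most transcripts, and 31 of the 34 bound genes had their midpoint within 1000 bp of it. Trpv4, with a ratio of 0.267 there, was bound at another TSS with 0.732. Cacna1i, placed in the middle groups by a ratio of 0.307, was bound at a TSS with 0.953. The largest gap was in the ninth group, where the CpG ratio runs from 0.803 to 0.885 and 10 of 18 channel genes were bound (55.6%, interval 30.8 to 78.5%), beside 28.1% of the other genes. That group was picked out by its values. In groups 1, 2 and 6 the channel genes were below the other genes. There 0 of 5, 0 of 16 and 1 of 14 were bound, beside 0.717, 1.89 and 14.8% of the other genes.

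**Figure D1:**
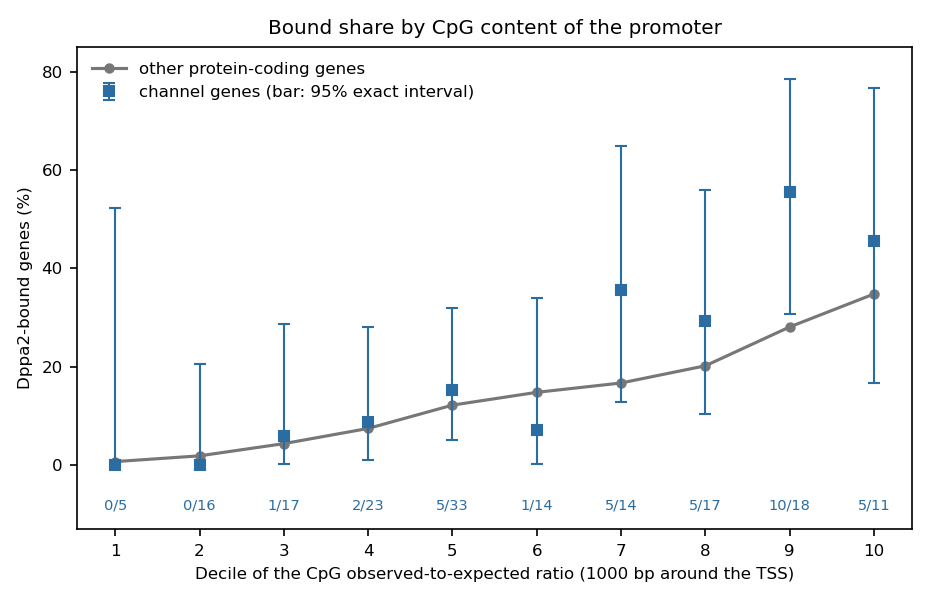
Share of Dppa2-bound genes (%) in each decile of protein-coding genes ranked by CpG observed-to-expected ratio, for channel genes with exact 95% intervals and for all other protein-coding genes. The share of other genes rises with each decile, and that of channel genes rises unevenly. Channel genes reach 55.6% in decile 9, where the other genes reach 28.1%, and fall to 7.14% in decile 6, where the other genes have 14.8%.

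**Figure D2:**
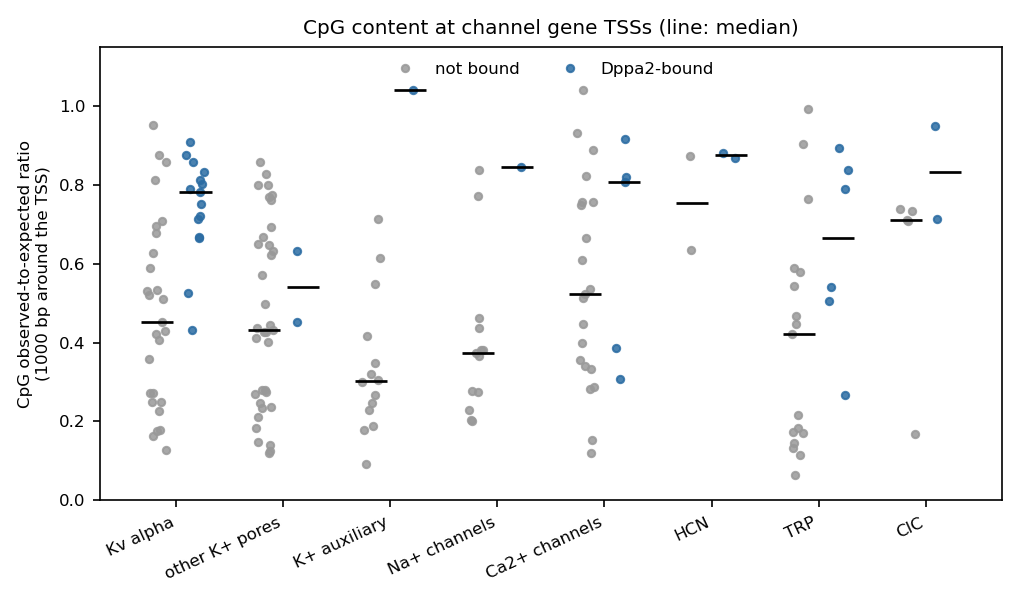
CpG observed-to-expected ratio in 1000 bp around the TSS shared by most transcripts, for each channel gene in 8 groups of families, with bound and unbound genes in separate columns and a line at each median. Bound genes have a median of 0.791 and unbound ones of 0.428, and unbound genes reach 1.04.

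Channel genes with 1 annotated TSS were bound in 13 of 63 cases (20.6%, interval 11.5 to 32.7%), beside 11.7% of the other genes with 1 TSS. With 2 TSSs the shares were 15.8% (6 of 38, interval 6.02 to 31.3%) and 14.2%, and with 3 or more they were 22.4% (15 of 67, interval 13.1 to 34.2%) and 16.8%. In each class the share of other genes lay inside the interval of the channel genes. Channel genes are long: the median span was 59.6 kb for bound and 34.7 kb for unbound channel genes, and 28.7 and 14.0 kb for bound and unbound other genes. The part of gene length in the bound share was not tested.

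Binding was unevenly spread over the channel families. The alpha subunits of the Kv channels, grouped after the family counts had been seen, held 15 of the 34 bound genes. Of 42 such genes 35.7% were bound (interval 21.6 to 52.0%), beside 15.7% of other genes at their CpG content, which would be 6.59 genes. All remaining channel genes were bound in 19 of 126 cases (15.1%, interval 9.33 to 22.5%), beside a weighted share of 13.5% or 17.0 genes. Among promoters in the upper 5 groups of CpG content, 13 of 22 Kv alpha genes were bound (59.1%, interval 36.4 to 79.3%), where other genes gave 22.4% and the remaining channel genes 25.0% (13 of 52). In the lower 5 groups it was 2 of 20 Kv alpha genes (10.0%) and 6 of 74 of the remaining ones (8.11%). Since this grouping was made with the counts in view, it is a description and was not tested.

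**Figure D3:**
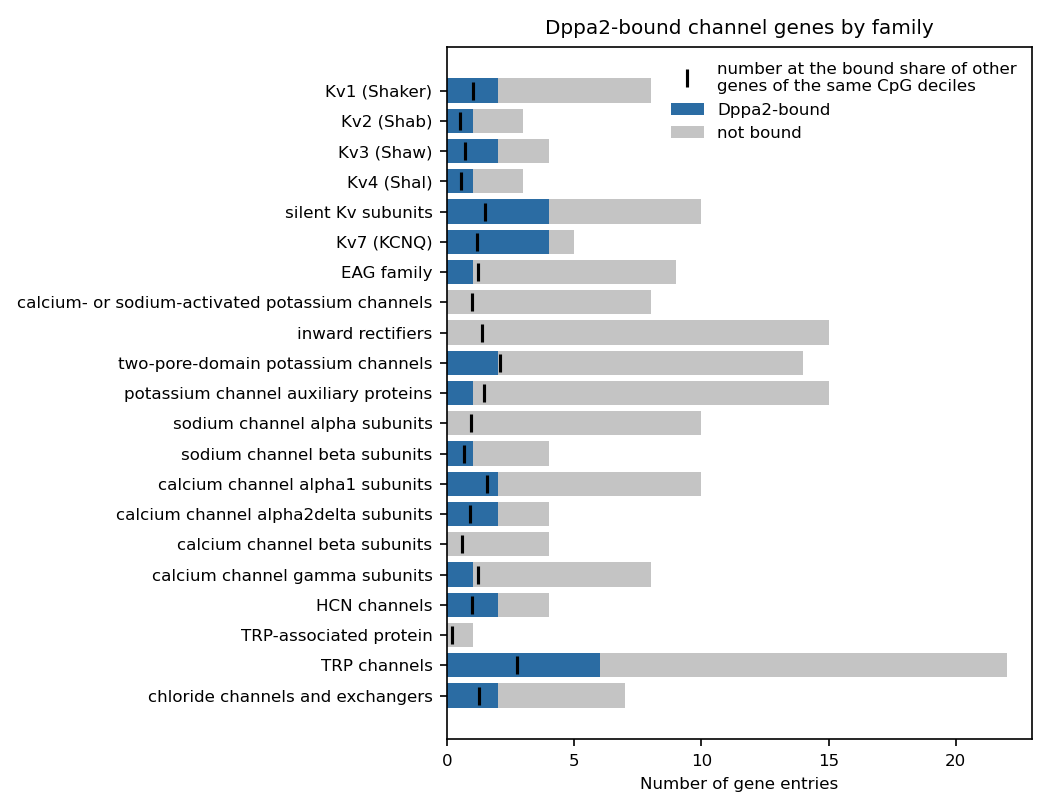
Number of gene entries per channel family, split into Dppa2-bound and not bound, with a tick at the number that the bound share of other genes in the same CpG deciles would give. The Kv7 bar has 4 bound of 5 with its tick at 1.17, and the inward rectifiers have 0 of 15 with a tick at 1.37.

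The Kv7 (KCNQ) family had the highest share, with 4 of 5 genes bound (80.0%, interval 28.4 to 99.5%) where its CpG content would give 1.17. These genes encode slow, non-inactivating channels. Kcnq3 and Kcnq5 contribute to the neuronal M-current and Kcnq1 carries a repolarising current of the heart. Kcnq3 had the second-highest score of all bound channel genes, 589.78, which is rank 242 of the 3336 peaks. Its peak at chr15:66117067-66118695 is 1629 bp wide with the midpoint 95 bp upstream of the TSS, and the TSS region has a CpG ratio of 0.812. Kcnq1 and Kcnq5 scored lower, 219.29 with the midpoint 127 bp upstream and 215.18 with the midpoint 19 bp downstream, at CpG ratios of 0.750 and 0.857. At a score of at least 200 the family kept Kcnq1, Kcnq3 and Kcnq5. Kcnq1 lies in an imprinted domain, and its peak was at its own promoter. The neighbouring taste-cell channel gene Trpm5, 12.6 kb away with a CpG ratio of 0.115, had no peak.

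The silent Kv subunits, which carry no current alone and assemble with Kv2 subunits, had 4 of 10 genes bound (40.0%, interval 12.2 to 73.8%), where CpG content would give 1.47. Kcnf1 scored 433.37 (rank 518), with a peak of 2279 bp at chr12:17181585-17183863 and its midpoint 264 bp downstream of the nearest TSS, in the coding part of exon 1. Kcng2 had a score of 320.53 (rank 994) and its midpoint 306 bp downstream, also in coding exon 1, on chromosome 18. Kcns2 scored 308.41 (rank 1069) at chr15:34766952-34768593, with the midpoint 636 bp downstream in an intron, the farthest from a TSS of the 34. Kcns3 scored 207.54 with its midpoint 361 bp downstream. Kcng3, in contrast, had one of the highest CpG ratios of the unbound channel genes, 0.951, and its nearest midpoint 880 kb away.

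The Kv1 (Shaker) family had 2 of 8 genes bound, where CpG content would give 1.02, and both lie in clusters of Kv1 genes in which the neighbours were not bound. Kcna3, the Kv1 subunit known from T lymphocytes, scored 423.23 (rank 561). Its peak at chr3:106838600-106840646 has its midpoint in coding exon 1, 543 bp downstream of the TSS, and the TSS region has a CpG ratio of 0.832. In the same cluster Kcna2, 63.4 kb away with a ratio of 0.696, and Kcna10, 145 kb away with a ratio of 0.127, had no peak. Kcna6 scored 150.73, with the midpoint 137 bp upstream of the nearest TSS and inside an untranslated part of the gene. Its neighbours Kcna1 (62.5 kb) and Kcna5 (173 kb) had none, although the CpG ratio of Kcna1, 0.532, was close to the 0.526 of Kcna6.

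In the other Kv families the bound genes included Kcnc4 of the Kv3 genes, Kcnd2 of the 3 Kv4 genes (0.527 by CpG content) and Kcnh1 of the 9 EAG entries (1.20 by CpG content). The Kv3 (Shaw) subunits are known for fast repolarisation in rapidly firing neurons. Kcnc4 scored 340.37 (rank 882) at chr3:107260882-107263485, a peak of 2604 bp that is the widest at a channel gene, with its midpoint 367 bp upstream. Kcnc1, with a CpG ratio of 0.858, was not bound, and the nearest midpoint was 18.8 kb away. Kcnd2, an A-type channel subunit of dendrites, scored 164.62 with its midpoint 209 bp upstream (chr6:21164532-21166057), and its paralogue Kcnd3 had no peak at a ratio of 0.876. Kcnh1, the mammalian ether-a-go-go gene, scored 114.25 with the midpoint 324 bp downstream (chr1:194014336-194015644), close to the lowest score in the list.

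Among the other potassium channel pores Kcnk4 and Kcnk1 were bound. The two-pore-domain channels, which set the resting potential as leak channels, had 2 of 14 genes bound, near the 2.06 that their CpG content would give. One of them, Kcnk4, which encodes a channel opened by membrane stretch and fatty acids, had the highest score of all channel genes, 852.61, and rank 77 of 3336. Its peak spans chr19:7007546-7009381, is 1836 bp wide and has its midpoint 542 bp downstream of its 1 TSS, in an intron. With a CpG ratio of 0.452 its promoter lay in group 5 of the 10, below the median of 0.544 of all protein-coding genes. The peak as a whole held 4.58 CG per 100 bp, beside 2 CG in the 120 bases shown above. The other bound gene, Kcnk1, scored 148.65 with its midpoint 490 bp downstream. Kcnk9, with a CpG ratio of 0.858, had no peak. The 15 inward rectifiers, which hold the membrane near the potassium equilibrium potential, had no bound gene (interval up to 21.8%), where their CpG content, with a median ratio of 0.413, would give 1.37. The 8 channels activated by calcium or sodium had none either, where it would give 0.987. Together these are 0 of 23 genes against 2.35, and the interval for 0 of 23 reaches 14.8%, above the weighted share of 10.2%. These families were put together because neither held a bound gene. The joint count was thus fixed by the choice, adds nothing to the separate counts and was not tested.

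Of the 15 potassium channel auxiliary proteins, which include the Kv beta subunits, KCNE proteins, KChIPs and BK beta subunits, Kcnmb4 was bound, beside 1.43 by CpG content. This beta subunit of the large-conductance calcium-activated channel in neurons scored 236.96, with the midpoint 165 bp downstream (chr10:115909909-115911630) in a region whose CpG ratio of 1.04 was the highest of the bound channel genes.

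Sodium channels carry the upstroke of the action potential, and none of their 10 alpha subunit entries was bound (interval up to 30.8%). Their promoters had a median CpG ratio of 0.370, and their CpG content would give 0.938 bound genes. Of the 4 beta subunits, which modulate gating and adhesion, 1 was bound, beside 0.649 by CpG content.

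Among calcium channels 5 of 26 genes were bound, beside 4.31 by CpG content. Of the 10 pore-forming alpha1 subunits (1.58 by CpG content) the bound ones were Cacna1h and Cacna1i. They are 2 of the 3 low-voltage-activated T-type genes (interval 9.43 to 99.2%, 0.523 by CpG content). The 4 L-type genes (interval up to 60.2%, 0.572 by CpG content) had no peak. Neither had the 3 P/Q-, N- and R-type genes (interval up to 70.8%, 0.489 by CpG content), and these intervals overlap. This split by current type was seen after the values, and the scores were low, 127.73 for Cacna1h (chr17:25569483-25571516, midpoint 214 bp downstream) and 109.03 for Cacna1i (chr15:80117237-80119005, midpoint 157 bp downstream). The third T-type gene, Cacna1g, had a CpG ratio of 0.665 and the nearest midpoint 11.6 kb from a TSS. Cacna1d had a ratio of 1.04, the highest among unbound channel genes, and Cacna1b had 0.889. The alpha2delta subunits, which bring the channels to the membrane, had Cacna2d1 (190.55, midpoint 63 bp upstream, chr5:15439725-15441168) and Cacna2d2 (123.42, midpoint 27 bp upstream) bound of 4, beside 0.917 by CpG content. The 4 beta subunits had none, beside 0.594. Of the 8 gamma subunits (1.22 by CpG content) Cacng4 was not bound with a CpG ratio of 0.931, and Cacng6 was bound with a score of 256.38, its midpoint 284 bp downstream (chr7:3425101-3426313). The promoter of Cacng6 was CpG-poor with a ratio of 0.386, and its neighbour Cacng7, 57.6 kb away with a ratio of 0.749, was not bound. Cacng8, 10.1 kb away with a ratio of 0.356, was not bound either.

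The HCN channels, which open on hyperpolarisation and pace rhythmic activity in heart and brain, had 2 of 4 genes bound (interval 6.76 to 93.2%), where CpG content would give 0.990. Hcn2 scored 144.47 with its midpoint 415 bp downstream in coding exon 1 (chr10:79179200-79180388). Hcn4, the main isoform of the sinoatrial node, was not bound at a CpG ratio of 0.874.

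TRP channels, cation channels of sensory and store-related signalling, had 6 of 22 genes bound (27.3%, interval 10.7 to 50.2%), beside 2.75 by CpG content. Trpm8, the receptor for cold and menthol, scored 275.73 (rank 1294, chr1:90173426-90174460) with its midpoint 293 bp upstream. Trpm3, a heat-sensitive channel, scored 266.29 (rank 1354, chr19:22213127-22214123) with its midpoint 16 bp downstream, the closest to a TSS of all 34. Trpv4, an osmotically and warmth-activated channel, scored 205.49 with the midpoint 117 bp downstream of the bound TSS. It was the single bound gene of 6 TRPV genes (interval 0.421 to 64.1%), beside 0.138 by CpG content. The TRPV genes have a median CpG ratio of 0.172. Of the 7 TRPC genes 3 were bound (interval 9.90 to 81.6%), beside 1.46 by CpG content. Among them were Trpc6 (186.92, 31 bp upstream) and Trpc1 (123.66, 384 bp downstream). Trpm7, with a CpG ratio of 0.992, Trpc2, with 0.905, and Trpa1 had no peak.

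The ClC proteins had Clcn3 and Clcn6 bound of 7 (interval 3.67 to 71.0%), both exchangers of endosomes and lysosomes, where CpG content would give 1.27. Clcn3 scored 135.85 with its midpoint 75 bp downstream (chr8:63461433-63462490), and Clcn6 scored 100.65 (rank 3324), the lowest of the 34, with its midpoint 418 bp upstream.

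Peak scores of the bound channel genes were of the size usual in the list. The score, given by MACS, is the −log10 of the p-value of the ChIP against the control multiplied by 10, and it ran from 101 to 853 with a median of 207 (quartiles 140 and 300). Other bound protein-coding genes had a median of 219 (quartiles 151 and 335), and 52.9% of bound channel genes and 56.9% of other bound genes reached a score of 200. Each bound channel gene had 1 peak. Across the 34 peaks the score was nearly unrelated to the peak width (Spearman's rho = 0.15) and to the CpG ratio at the TSS (rho = -0.18). These are descriptions over peaks of 1 library, not over replicates.

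**Figure D4:**
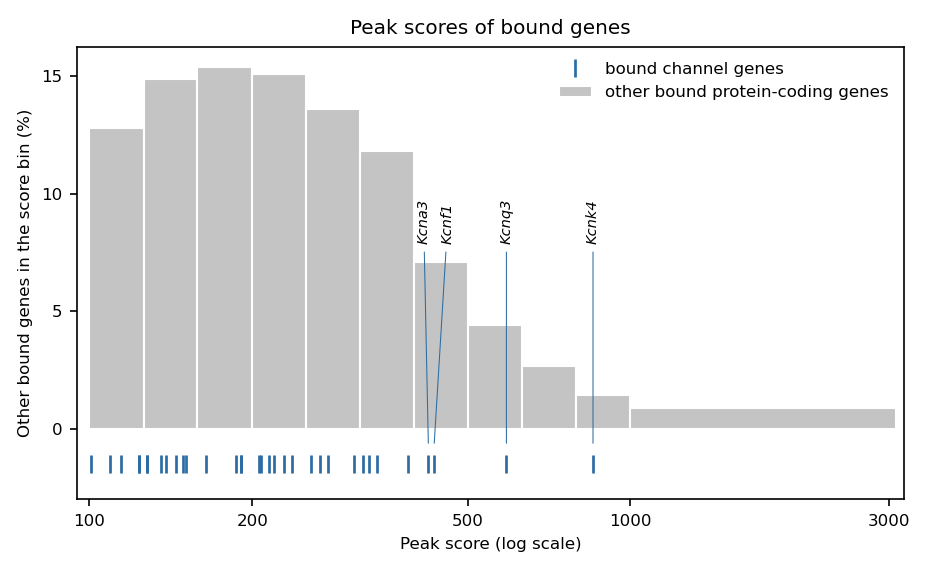
Share of other bound protein-coding genes (%) in each bin of the peak score on a log axis (grey bars, of which the last is wider), with a mark below the axis for each of the 34 bound channel genes. The channel genes spread from 101 to 853 over the range of the other genes, and the 4 highest are named.

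Peak positions relative to the TSS were also like those at other genes. The TSS lay inside the peak at all 34 channel genes and at 97.8% of the other bound genes. At 24 channel genes (70.6%) the midpoint lay downstream of the closest TSS, and at 10 upstream, and the other genes had 69.2% downstream. The median position was 161 bp downstream (quartiles -30.0 and 352 bp) at channel genes and 120 bp at other genes, and the median width was 1484 bp against 1437 bp. By annotation 11 midpoints fell in a coding exon, 9 in an untranslated part, 6 in an intron and 8 outside the gene. Kcns2, Kcna3 and Kcnk4, with midpoints 636, 543 and 542 bp from the TSS, were the members nearest to the limit of 1000 bp on its inner side, and they were lost with a window of 500 bp. On the outer side, Kcnh4 was the nearest, with its midpoint 2122 bp away, and no channel gene lay between 1000 and 2000 bp.

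**Figure D5:**
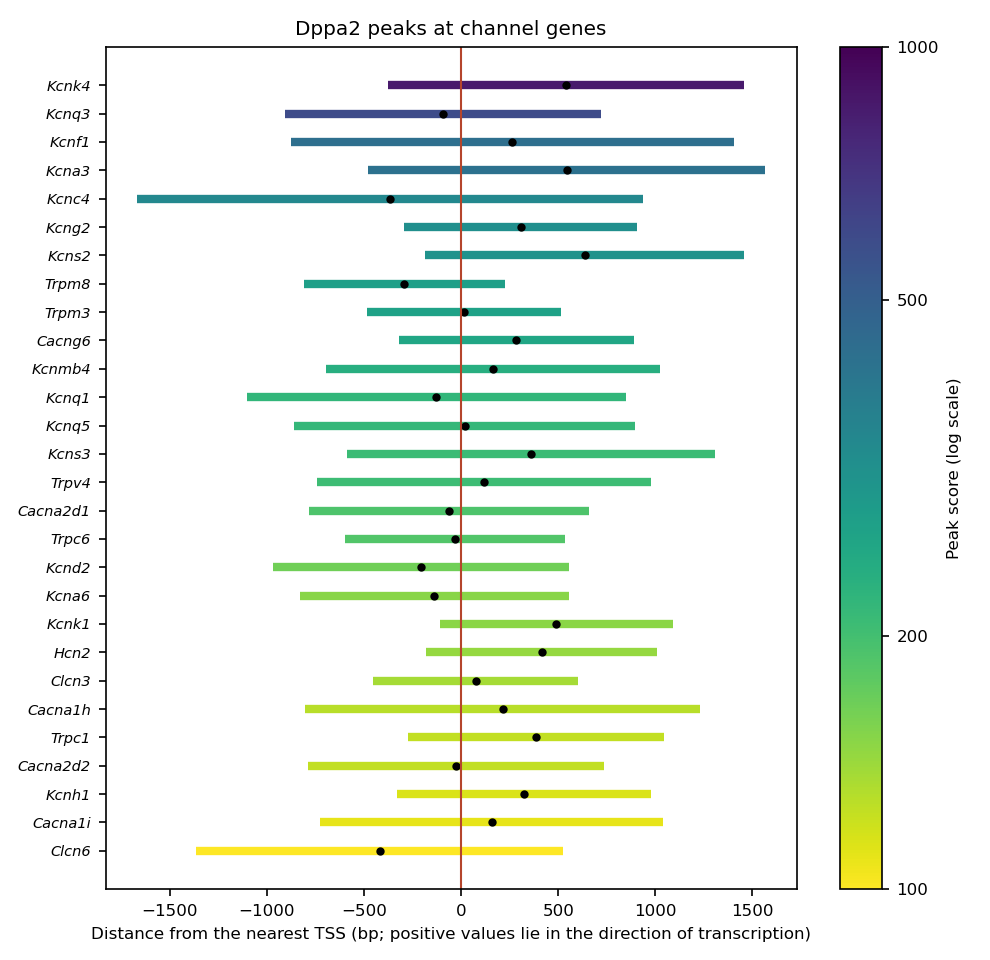
Extent of the Dppa2 peak at 28 of the 34 bound channel genes relative to the nearest TSS (bp, downstream to the right), ordered and coloured by score, with the midpoint marked. Every peak spans the TSS, and the midpoints lie between 418 bp upstream and 636 bp downstream of it.

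At 6 of the 34 channel genes (17.6%) the same peak also lay within 1000 bp of the TSS of another annotated gene, so that the peak cannot be assigned to the channel gene alone. The other bound protein-coding genes shared their peak in 24.1% of cases. Trpm8 shared it with Hjurp, a centromere chaperone gene on the opposite strand whose TSS is 155 bp away, and the midpoint was 138 bp downstream of the Hjurp TSS. With TSSs of protein-coding transcripts alone Trpm8 was no longer bound. Clcn3 shared its peak with B230317F23Rik and Kcnmb4 with 4933400F03Rik, both on the opposite strand. The scores of the 28 genes with a peak of their own had the same median, 207.

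Where a bound channel gene had several promoters, the peak was at the CpG-rich one. Of the bound genes 15 had a TSS more than 1000 bp from the midpoint, and at 14 of them (93.3%) the bound TSS had the highest CpG ratio, as at 93.0% of other such genes (1338 of 1439). Cacna1i was bound at a TSS with a ratio of 0.953, while its TSS shared by most transcripts, 102 kb downstream, had 0.307. Trpv4 was bound at a TSS with 0.732 beside at most 0.480 at its far TSSs, and Trpm3 at one with 0.506 beside 0.368. Cacna1i and Trpv4 were therefore bound at a TSS other than the one shared by most transcripts.

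Short sequence motifs were counted in the 1000 bp around the TSS on both strands, as a description of letters and not of factor binding, and matches of different motifs may overlap. The GC box, GGGCGG, was present at 33 of 34 bound channel genes (97.1%) and 65.7% of unbound ones, beside 87.8% of other bound genes and 59.6% of all protein-coding genes. CGCG was present at 94.1% of bound and 60.4% of unbound channel genes, beside 91.4% of other bound genes and 62.6% of all genes. Both motifs contain CG, in which bound channel genes were richer, and these shares were not matched for CpG content. The left part of the RE1 consensus bound by REST, a repressor of neuronal genes, is TTCAGCACC. It was found at Kcns2 and Trpm3 among the bound channel genes (5.88%), at 7 of 134 unbound ones (5.22%) and at 1.60% of all genes, so that bound and unbound channel genes were close to each other. The right part, GGACAG, was present at 47.1% of bound and 73.9% of unbound channel genes, and at 58.5% of all genes.

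Of the channel and channel-related genes outside the rule 18 of 94 were bound (19.1%, interval 11.8 to 28.6%). The 14.2% of all protein-coding genes lies inside this interval. These genes, too, were chosen with earlier results of these data known, and no share weighted by CpG content is given for them. Of 33 other cation channels 8 were bound (interval 11.1 to 42.3%). They were Accn1, Accn2 and Accn3 (acid-sensing channels), Fam38a and Fam38b (the mechanically gated Piezo channels), Nalcn, Tmem38a and Tpcn1. The sodium leak channel Nalcn had the highest score of these, 662.36. Genes of calcium release and store-operated entry were bound in 4 of 11 cases (interval 10.9 to 69.2%). These were the ryanodine receptors Ryr2 and Ryr3 and the calcium sensors Stim1 (621.35) and Stim2. Of 24 genes of other chloride channels and related proteins Ano8 (657.15) and Bsnd were bound (interval 1.03 to 27.0%). Of 26 channel partners Akap9, Dpp6, Nedd4l and Stac were bound (interval 4.36 to 34.9%). The 14.2% of all protein-coding genes lies inside each of these intervals too.

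Repeated sequence, in which reads of other copies can be placed, made up little of these peaks. In 25 of the 34 peaks no 32-base stretch occurred more than once in mm9, and the largest share was 4.35%, at Clcn6.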

How the data were processed

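V5-Dppa2 ChIP-seq peaks in CGR8 ESCs were analysed from the deposited list. Its score, set by the authors' run of MACS, is a −log10 p-value against the control ChIP multiplied by 10. Per the methods and the submitters' processing notes, low-complexity reads were removed, reads were aligned to mm9 with Bowtie 0.12.7, the best alignment was kept, duplicates were removed (the notes name Picard 1.81) and peaks were called with MACS 1.4.2. For Dppa2, peaks below 100 reads or below a score of 100, the lowest in the list, were not kept, so weaker peaks are not in it. Sequencing depth is unknown from the list.

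Peak midpoints (the list holds no summits) were set against all TSSs of GENCODE M1, on the same build. CpG ratios were taken over 1000 bp around the TSS shared by most transcripts, and genes were ranked into 10 equal groups. Shares have 95% exact Clopper-Pearson intervals, and no test was run. Other genes were weighted directly to the CpG groups of the channel genes. The steps were tested on simulated data, in which peaks were placed at known distances. Python 3.11.15, numpy 2.4.6, pandas 2.3.3, scipy 1.17.1 and pysam 0.24.0 were used.

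Bound channel genes are named, with full values for the 10 highest scores and the highest of each family, apart from some genes that are not reported here. Unbound ones are named when near the window, when their state changed, among the 10 highest in CpG ratio, or as paralogues within 200 kb of a bound gene. Named beyond this rule, after their values were seen, are Cacna1g and Trpa1. The members, families and related lists were chosen with earlier results of these data known. The alternatives were other windows, any base of the peak, a stricter score, merged peaks, other TSS sets, pore-forming genes alone and other measures of promoter content.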

Additional observations from a re-analysis of the deposited data

How the results depend on the processing

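No paired analysis was possible because the V5-Dppa2 ChIP is a single library, which also left no replicate to leave out. A score of at least 200 lowered the bound share of channel genes from 20.2% to 10.7% and the families with a bound gene from 16 to 10 of 21, as fewer peaks enter. The bound share stayed between 17.9% (window of 500 bp) and 22.0% (pore-forming genes) in the other 9 alternatives. The difference from other genes of like CpG content, 6.22 percentage points, was above 0 in all 10 alternatives, from 2.60 to 6.33 points. In some of them the weighted share of other genes lay inside the interval of the channel genes, and the difference was not tested. With CpG groups divided by 3 classes of GC content the difference was 3.17 points, and the cause was not tested. The median score and the share of related genes moved by less than their intervals. Of the 34 bound genes, 13 stayed bound under every setting and 26 under every setting other than the score of at least 200. A window of 5000 bp added Kcnh4, and 1 TSS a gene lost 3 genes, Cacna1i and Trpv4 among them. Counting 1 entry a symbol, and 2 of the CpG alternatives, were chosen after seeing the data. The limits on score and reads under which peaks were kept, and the unknown depth, bound what an absent peak shows.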

Other observations

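By chromosome, none of the 17 channel genes on chromosome 11 was bound (95% exact interval up to 19.5%), where 19.1% of the other protein-coding genes on that chromosome were. The channel genes there had a median CpG ratio of 0.359, below the 0.509 of all channel genes, and the part of CpG content in this count was not tested. Chromosome 11 was singled out after the counts of all chromosomes had been seen. On chromosome 7, which holds 19 channel genes, 4 were bound (interval 6.05 to 45.6%), beside 9.60% of the other genes there. Chromosome X had 0 of 4 (interval up to 60.2%), beside 1.83% of the other genes.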
